A study of Homo sapiens with 2 samples.

Results

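The 56 genes described here encode proteins of homologous recombination, end joining, excision, mismatch and crosslink repair and of the damage checkpoint, out of 20037 protein-coding genes in all. They were taken from a fixed list of gene names, and all 56 were found in the RefSeq annotation. Lactylated lysine was mapped with CUT&Tag in the human cell line CAL27, which is derived from an oral squamous cell carcinoma, with 1 library of cells given no treatment and 1 of cells kept in 10 mM lactate for 24 hours. A pan-lactyllysine antibody, which reads the modification on any protein, guided the transposase that cut the DNA beside it. The 2 libraries held 15696147 and 15120031 tags and gave 43680 and 50352 regions. The header of each peak list carries the name of the other sample, so each library is named here by its label only, as untreated-labelled or lactate-labelled, and each direction below would turn if the lists were exchanged. With 1 library per group no difference has a replicate check and no test was run. The lists hold no expression values, so the cells were not checked against marker genes, and no library made without antibody was used here, so antibody signal cannot be told apart from cutting of open chromatin.

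DNA repair is divided by the lesion that is handled. Breaks of both strands are sensed by the MRE11-RAD50-NBN complex, signalled by the kinases ATM and ATR to CHEK2 and CHEK1, and mended either by copying a sister strand (homologous recombination) or by direct end joining. Damaged bases are cut out by excision pathways, copying errors are removed by mismatch repair, and crosslinks are processed by the Fanconi anaemia proteins. Promoters of such genes are mostly CpG-rich and are active in dividing cells.

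Most repair genes carried a lactylation region at a gene end in both libraries. A gene is called marked when a region overlaps 1 kb to either side of its lower or upper annotated end. In the untreated-labelled library 42 of 56 were marked (75%, exact Clopper-Pearson 95% interval 61.6 to 85.6), against 43.5% of all protein-coding genes. In the lactate-labelled library 47 of 56 were marked (83.9%, interval 71.7 to 92.4), against 49.5% of all genes. Both libraries marked 39 (69.6%, interval 55.9 to 81.2), against 39.8%. The lactate-labelled library alone marked 8 (14.3%, interval 6.38 to 26.2), against 9.70%, and the untreated-labelled library alone marked 3 (5.36%, interval 1.12 to 14.9), against 3.74%. Neither library marked 6 (10.7%, interval 4.03 to 21.9), against 46.8%. The intervals cover counting error only. Just inside the 1 kb limit, the nearest region lay 596 bp from an end at MRE11 and 538 bp at CHEK1 in the untreated-labelled library, and 646 bp at CHEK1 and 578 bp at ERCC3 in the other. Just outside it were FANCM at 1.12 kb and DDB1 at 1.45 kb, and FANCM at 1.15 kb and ERCC1 at 1.18 kb.

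The pathways were marked as follows, each gene being placed in 1 of 8 groups. Of the 14 homologous recombination genes 11 were marked in the untreated-labelled library and 12 in the lactate-labelled library. Of the 10 genes of break sensing and checkpoint signalling the counts were 9 and 8. All 7 end joining genes and all 7 genes of base excision and single-strand break repair were marked in the lactate-labelled library, and 5 of each group in the untreated-labelled library. Nucleotide excision had 5 and 7 of 9. The 3 mismatch repair genes were marked in both libraries. Crosslink repair had 4 and 3 of 5, and MGMT, the 1 gene of direct reversal, was marked in neither. Groups of this size cannot be ranked, since 1 or 2 genes separate most of them.

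**Figure D1:**
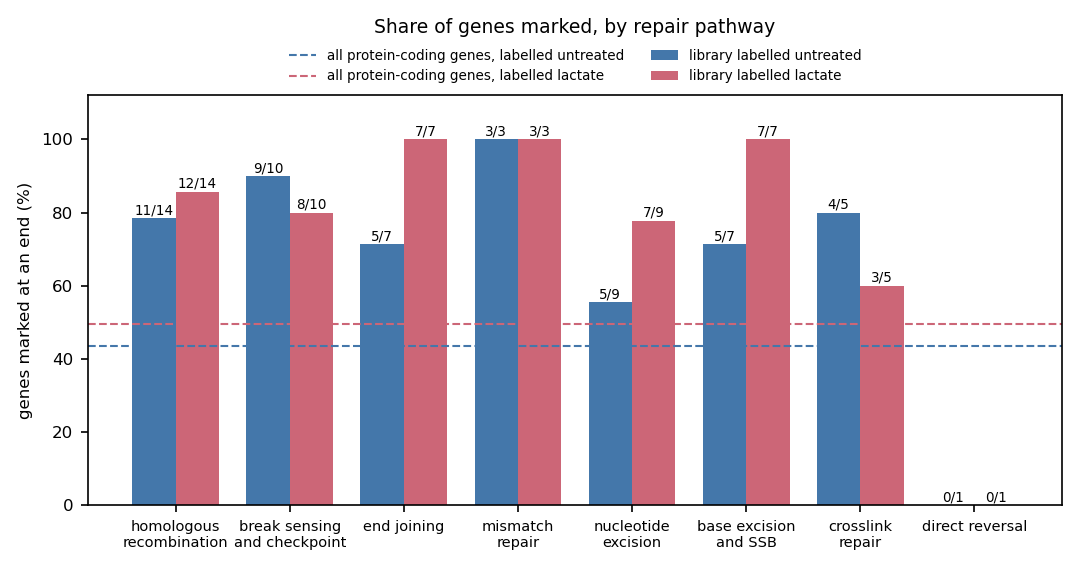
Share of repair genes marked at an end (y axis, percent) in each pathway group, with the number marked over the number in the group above each bar, where SSB is single-strand break; dashed lines give the share of all protein-coding genes, 43.5% and 49.5%. End joining and base excision reach 7 of 7 in the lactate-labelled library, and direct reversal, with 1 gene, has 0.

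The strength of a region is given by the authors' fold enrichment over the local background and by the pileup, the number of tags stacked at the summit, which is not scaled for depth. Each gene is represented by its gene-end region of highest fold enrichment. The median over marked repair genes was 5.73 in the untreated-labelled library and 6.37 in the lactate-labelled library, beside 5.14 and 5.49 over all marked protein-coding genes. The median pileup was 18 and 19 tags, beside 18 and 20. A fold enrichment of at least 5 was reached by 31 of 42 and 36 of 47 marked repair genes (73.8% and 76.6%), beside 53.5% and 61.2% of all marked genes. In pileup the repair genes were thus close to other marked genes, and in fold enrichment their medians lay somewhat above.

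**Figure D2:**
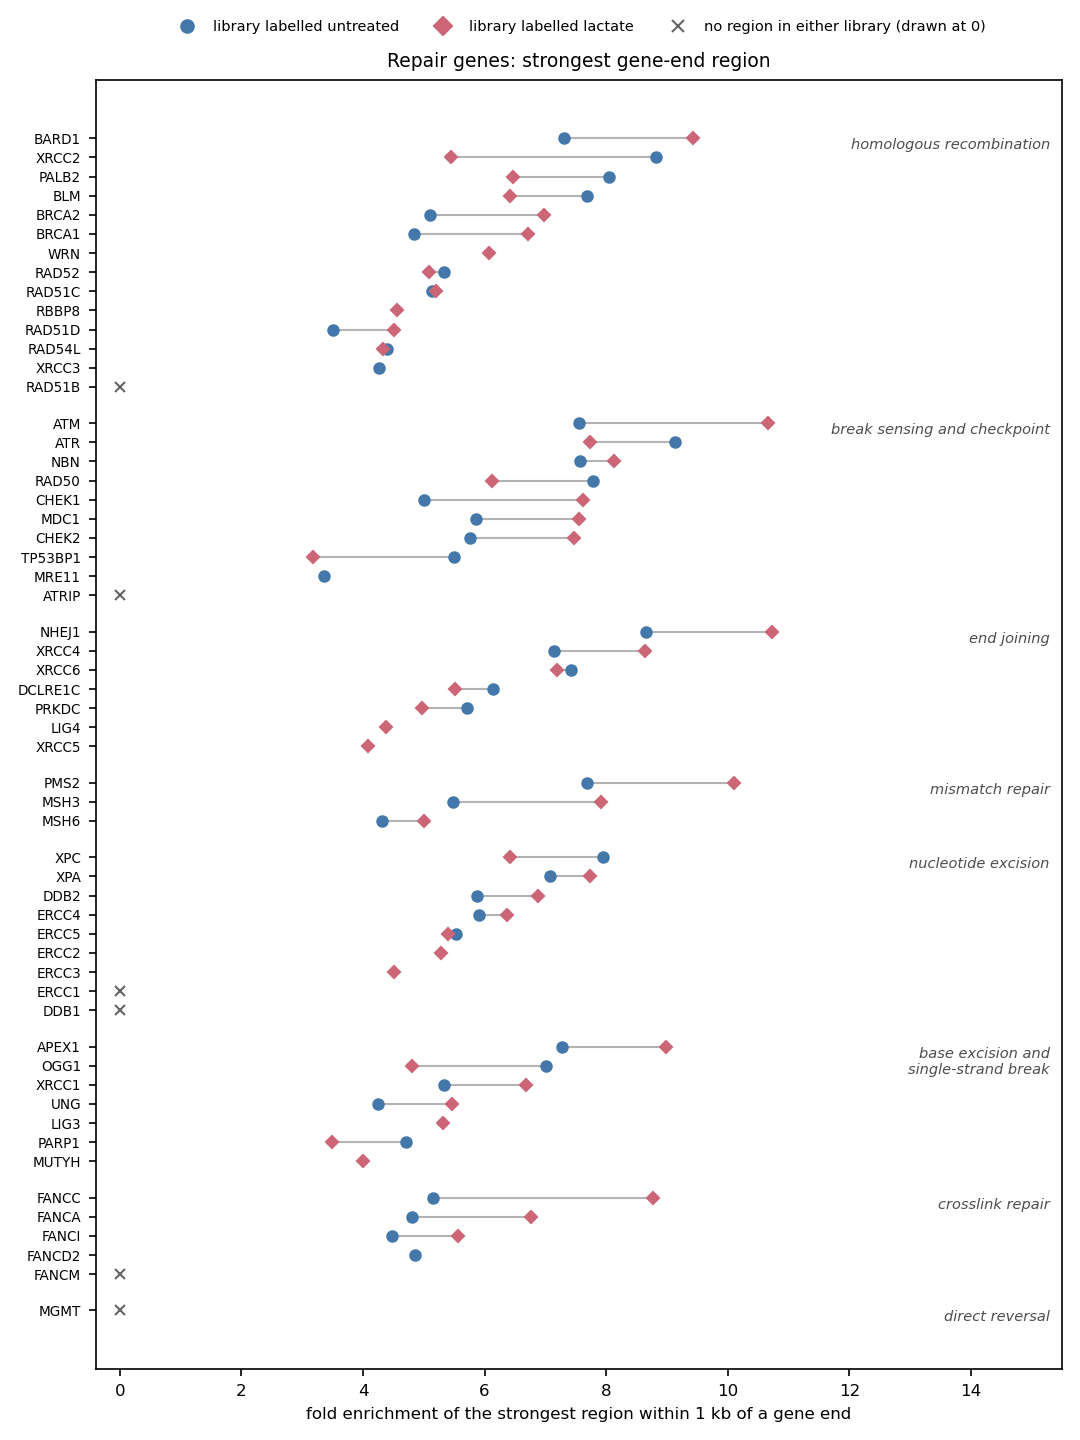
Fold enrichment (x axis, ratio to the local background) of the strongest region within 1 kb of a gene end for each of the 56 repair genes, grouped by pathway; circles are the untreated-labelled library, diamonds the lactate-labelled library, and crosses at 0 the genes with no region in either. The highest values are 10.7 at NHEJ1 and ATM, and 6 genes carry a cross.

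The DNA at a listed start is shown for 7 genes. ATM, PMS2 and BARD1 are among the strongest in the lactate-labelled library, and MRE11 has a region at an inner start. LIG4 was marked in 1 library, and FANCM and MGMT in neither. Each run is the RefSeq window (GRCh38.p14) from 250 bases before a listed gene start to 50 after it, 5′ to 3′ on the strand of the gene. Capitals mark 7 motifs searched on both strands: the GC box (GGGCGG), the CCAAT box (CCAAT), the ETS core (CCGGAAG), NRF1 (GCGCATGC), E2F (GGCGGGAA), CRE (TGACGTCA) and the TATA box (TATAAA). GC box and E2F letters can overlap, as in MGMT. The LIG4 window overlaps only the weaker of its 2 regions in the lactate-labelled library, with a fold enrichment of 3.37. The BARD1 summit of that library lies 308 bp upstream of the start, outside the window. The windows lie at chr11:108222817-108223116 (plus strand), chr7:6009057-6009356 (minus), chr2:214809634-214809933 (minus), chr11:94493795-94494094 (minus), chr13:108218300-108218599 (minus), chr14:45135680-45135979 (plus) and chr10:129466991-129467290 (plus).
ATM: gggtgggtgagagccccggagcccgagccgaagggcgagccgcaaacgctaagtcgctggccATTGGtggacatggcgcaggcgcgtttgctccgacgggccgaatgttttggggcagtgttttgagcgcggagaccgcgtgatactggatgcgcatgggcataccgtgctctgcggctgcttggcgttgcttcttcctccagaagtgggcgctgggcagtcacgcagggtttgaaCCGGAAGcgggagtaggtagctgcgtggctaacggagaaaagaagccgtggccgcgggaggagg
PMS2: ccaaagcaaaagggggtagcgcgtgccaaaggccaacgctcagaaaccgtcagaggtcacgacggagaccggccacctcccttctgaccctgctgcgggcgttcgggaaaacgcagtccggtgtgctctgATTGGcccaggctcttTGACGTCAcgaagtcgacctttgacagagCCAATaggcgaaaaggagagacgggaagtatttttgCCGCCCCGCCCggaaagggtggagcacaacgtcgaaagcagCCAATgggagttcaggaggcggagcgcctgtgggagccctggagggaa
BARD1: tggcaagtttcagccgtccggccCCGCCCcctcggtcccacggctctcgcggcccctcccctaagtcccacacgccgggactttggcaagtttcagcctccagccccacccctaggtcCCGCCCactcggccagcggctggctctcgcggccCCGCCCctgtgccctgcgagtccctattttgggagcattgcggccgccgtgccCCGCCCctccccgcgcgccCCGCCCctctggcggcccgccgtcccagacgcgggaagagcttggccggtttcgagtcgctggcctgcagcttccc
MRE11: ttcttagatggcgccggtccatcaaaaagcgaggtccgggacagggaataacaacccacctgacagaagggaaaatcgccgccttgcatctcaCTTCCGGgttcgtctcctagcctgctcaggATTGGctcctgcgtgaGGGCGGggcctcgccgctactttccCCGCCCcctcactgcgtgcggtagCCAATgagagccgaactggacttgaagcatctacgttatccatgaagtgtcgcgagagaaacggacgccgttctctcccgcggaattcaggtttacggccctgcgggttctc
LIG4: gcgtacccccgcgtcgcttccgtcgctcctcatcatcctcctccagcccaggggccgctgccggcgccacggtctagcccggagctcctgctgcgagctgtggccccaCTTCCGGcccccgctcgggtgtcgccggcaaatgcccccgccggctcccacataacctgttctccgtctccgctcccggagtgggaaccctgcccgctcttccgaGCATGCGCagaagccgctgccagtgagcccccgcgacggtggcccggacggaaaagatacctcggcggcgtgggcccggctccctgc
FANCM: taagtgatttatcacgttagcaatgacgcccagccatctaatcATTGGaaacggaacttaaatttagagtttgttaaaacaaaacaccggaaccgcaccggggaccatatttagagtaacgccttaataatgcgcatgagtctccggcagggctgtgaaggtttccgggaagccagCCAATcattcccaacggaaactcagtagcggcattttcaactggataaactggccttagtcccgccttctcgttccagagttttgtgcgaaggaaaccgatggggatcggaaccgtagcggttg
MGMT: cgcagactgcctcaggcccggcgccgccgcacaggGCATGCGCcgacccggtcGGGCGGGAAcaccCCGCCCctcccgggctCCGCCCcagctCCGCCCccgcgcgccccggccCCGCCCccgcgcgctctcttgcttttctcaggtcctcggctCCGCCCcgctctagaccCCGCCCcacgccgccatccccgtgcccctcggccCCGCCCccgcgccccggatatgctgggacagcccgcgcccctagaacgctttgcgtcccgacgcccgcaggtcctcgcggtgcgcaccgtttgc

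The printed windows differ in composition. PMS2 held 3 CCAAT boxes, 2 GC boxes and a CRE, and BARD1 held 5 GC boxes at 73.7% GC. The MGMT window had the highest GC content of the 51 windows read, 78.7%, with 8 GC boxes, and had no region in either library. The FANCM window, also without a region, had 48.0% GC and 2 CCAAT boxes. High GC content and GC boxes were thus present in windows with and without a region.

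Of the 56 genes, 51 had such a window, and for genes with several starts the one nearest the outer gene end was read. Median GC content was 64.3% and the median observed-to-expected CpG ratio 0.880, beside 62.7% and 0.761 over 15843 protein-coding windows. In the 8819 windows of genes marked in a library these medians were 65.0% and 0.839. The GC box was found in 37 of 51 windows (72.5%), beside 58.3% of all and 70.3% of those of marked genes. The CCAAT box was found in 25 (49.0%), beside 36.4% and 38.1%. The ETS core was found in 16 (31.4%), beside 14.2% and 19.7%. The E2F letters were found in 8 (15.7%), beside 4.24% and 5.27%, namely in BLM, FANCD2, MGMT, MSH6, RAD54L, XPC, XRCC2 and XRCC3. NRF1 letters were found in 5 (9.80%, beside 4.28%), CRE in 3 (5.88%, beside 2.56%) and the TATA box in 2 (3.92%, beside 9.75%), DCLRE1C and RAD52. A match is a description of letters in a window of 300 bases and does not show binding.

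Regions sat just upstream of the gene start. For 39 marked genes with a listed start in the untreated-labelled library, the summit lay upstream of the nearest start in 31 and downstream in 8, with a median position of -65 bp. For 42 such genes in the lactate-labelled library the counts were 34 and 8 and the median -93.5 bp. The summit was within 100 bp of a start in 21 genes of each library and within 250 bp in 30 of each. The strongest region lay at the start side of the gene in 37 of 39 and 41 of 42. The exceptions were ATR in both libraries and XRCC3 in the untreated-labelled library.

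**Figure D3:**
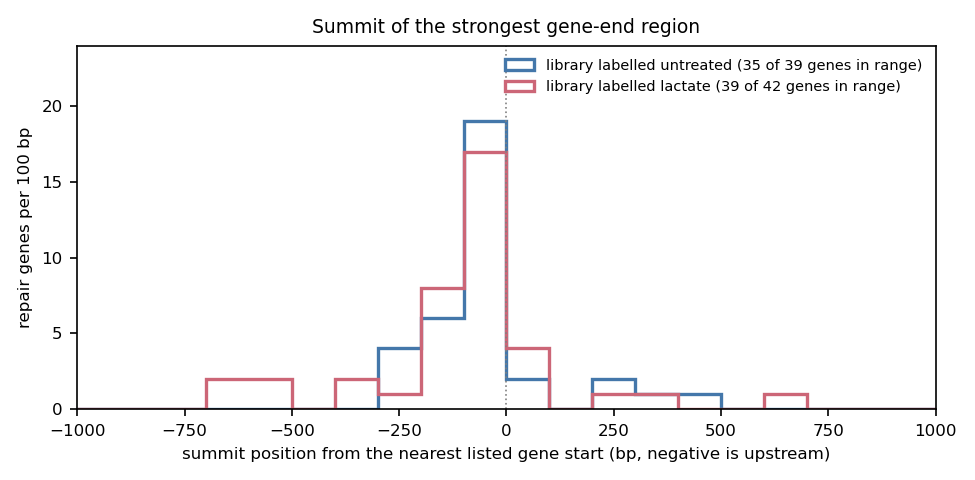
Position of the summit of the strongest gene-end region from the nearest listed gene start (x axis, bp, negative is upstream) against the number of repair genes per 100 bp (y axis), 1 line for each library. The lines peak just upstream of 0 and hold the 35 of 39 and 39 of 42 genes that lie within 1000 bp.

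Among the sensors of double-strand breaks, ATM, the kinase that responds to them, carried one of the strongest regions of the lactate-labelled library. Its pileup was 15 tags with a fold enrichment of 7.55 in the untreated-labelled library (chromosome 11 from 108222569 to 108223143). In the lactate-labelled library it was 28 tags with 10.7 (from 108222495 to 108223242). The region also lies at the end of NPAT, the histone gene regulator that faces ATM. NBN, a subunit of the sensing complex, had regions with 29 tags (7.58) and 32 tags (8.13) at chromosome 8. RAD50, another subunit, had 20 tags (7.78) at its start in the untreated-labelled library, and in the lactate-labelled library its strongest region lay further in, with 17 tags (6.12). Both libraries had regions at both places, so RAD50 differed in which region was stronger and not in where regions lay.

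ATR, the kinase of stalled replication forks, had its strongest region at the far end of the gene. There it held 33 tags (9.14) and 29 tags (7.73) within 1 kb of an end of XRN1, an RNA exonuclease gene. At its own start ATR had 16 tags (4.52) and 19 tags (5.26). ATRIP, the partner that recruits ATR, had no region at an end in either library. Its nearest regions, 1.76 and 1.71 kb from an end, lie inside the gene beside TREX1, a DNA exonuclease gene.

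The checkpoint kinases that act downstream were marked in both libraries. CHEK1 had 11 tags (5.00) in 1 region of the untreated-labelled library and 24 tags (7.62) in the stronger of 2 regions of the lactate-labelled library. CHEK2, which faces HSCB, had 2 regions in each library, the strongest with 18 tags (5.76) and 28 tags (7.47), and these lie at different places. MDC1, a scaffold at marked breaks, had 27 tags (5.86) and 38 tags (7.56). TP53BP1, which favours end joining, went the other way with 21 tags (5.50) and 11 tags (3.17), the lowest fold enrichment of the 56 genes in the lactate-labelled library.

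Homologous recombination genes ranged from 3.50 to 8.82 in the untreated-labelled library and from 4.33 to 9.43 in the lactate-labelled library. BARD1, the partner of BRCA1, was the highest in the latter, with 30 tags (7.31) and 39 tags (9.43). XRCC2, a strand exchange factor, was the highest in the former, with 26 tags (8.82) and 16 tags (5.45). PALB2, which links BRCA1 to BRCA2 and faces DCTN5, had 23 tags (8.05) and 17 tags (6.47). BLM, the helicase mutated in Bloom syndrome, had 2 regions in each library, the strongest with 21 tags (7.69) and 19 tags (6.41). Of the 10 genes of this group marked in both, 5 had the higher fold enrichment in each library.

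BRCA2, a central mediator of recombination, had 14 tags (5.10) and 17 tags (6.98) near the facing end of ZAR1L. BRCA1 was marked at the outer end of its annotation, beside NBR1 and the copy BRCA1P1, with 21 tags (4.85) and 28 tags (6.71). Reads there are uncertain because BRCA1P1 shares sequence with BRCA1. The start that lies 44963 bp further in, at 43125364 on chromosome 17, also carried a region in both libraries, with 13 tags (4.32) and 15 tags (4.49). RAD51C had 10 tags (5.14) and 12 tags (5.20), and RAD52 had 12 tags in each (5.33 and 5.08). RAD51D had 13 tags (3.50) and 18 tags (4.50), and RAD54L 18 tags (4.40) and 19 tags (4.33). None of these 4 had more than 19 tags in a library.

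End joining genes were strongest at NHEJ1, which encodes the ligation factor XLF. It had 35 tags (8.65) and 43 tags (10.7) on chromosome 2, from 219160151 to 219160942 and from 219160130 to 219160958. XRCC4, the partner of LIG4, had 16 tags (7.14) and 22 tags (8.65). XRCC6, which encodes Ku70, had 26 tags (7.42) and 24 tags (7.18), and faces DESI1. DCLRE1C, the end-trimming nuclease Artemis, had 12 tags in each library (6.13 and 5.51). PRKDC, the catalytic subunit of DNA-PK, had 2 regions in each library beside MCM4, the strongest with 20 tags (5.71) and 21 tags (4.98). XRCC5, which encodes Ku80, was marked in the lactate-labelled library alone, so the 2 genes of the Ku dimer differed at their ends. Inside XRCC5, 5.07 kb from an end, the untreated-labelled library had a region of 13 tags (5.26).

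All 3 mismatch repair genes were marked in both libraries, with higher values in the lactate-labelled library. PMS2 had 40 tags (7.68) and 59 tags (10.1), and faces AIMP2. PMS2 has near-identical pseudogene copies, so its reads are uncertain. MSH3, which recognises insertion and deletion loops, had 22 tags (5.48) and 34 tags (7.92). MSH6 had 14 tags (4.31) and 21 tags (5.00).

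Among damage recognition genes of nucleotide excision, XPC had 15 tags (7.95) and 13 tags (6.42) and XPA had 30 tags (7.08) and 31 tags (7.73). DDB2, the ultraviolet damage sensor, had 23 tags (5.88) and 33 tags (6.88), while DDB1, its partner in the same complex, had no region at an end or inside. The nearest regions to DDB1 lay 1.45 and 1.43 kb from an end. The nuclease genes ERCC4 and ERCC5 were marked in both libraries, ERCC4 with 18 tags (5.90) and 19 tags (6.37) and ERCC5 with 18 tags (5.52) and 14 tags (5.40). The helicase genes ERCC2 and ERCC3, both of transcription factor IIH, were marked in the lactate-labelled library alone.

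In base excision repair, APEX1, the abasic site endonuclease, had the highest pileup of the 56 genes, 85 and 117 tags, with fold enrichments of 7.28 and 8.98. Its local background was also the highest of the group, 10.8 and 12.1 tags against medians of 2.46 and 2.54. The region lies between APEX1 and OSGEP. OGG1, which removes oxidised guanine, had 21 tags (7.01) and 16 tags (4.80). UNG, which removes uracil, had 13 tags (4.24) and 20 tags (5.47). The single-strand break genes XRCC1 and PARP1 had 15 tags (5.33) and 20 tags (6.69), and 18 tags (4.70) and 14 tags (3.49).

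Of the Fanconi anaemia genes, FANCC had the highest ratio of fold enrichment in the lactate-labelled to the untreated-labelled library of the 39 listed genes marked in both. In the untreated-labelled library it had 2 regions, with 20 tags (5.15) and 19 tags (4.81). In the lactate-labelled library 1 region of 1022 bp spanned both places, with 42 tags (8.78). FANCA had 18 tags (4.80) and 27 tags (6.76), and FANCI had 11 tags (4.48) and 15 tags (5.56). FANCM, the helicase that anchors the core complex, had no region at an end, but the nearest ones lay 1.12 and 1.15 kb away beside FKBP3, with 10.5 and 9.38. Those values are above the gene-end regions of FANCA, FANCC, FANCI and FANCD2 in the same library.

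Between the libraries, the fold enrichment was higher in the lactate-labelled library at 24 of the 39 genes marked in both (61.5%) and lower at 15. Of 7975 protein-coding genes marked in both it was higher at 66.1%. The comparison uses the strongest region of each library, which at RAD50 and CHEK2 lay at different places and at ATR at the far end. The median ratio was 1.16, beside 1.10 over all genes, and the repair genes ranged from 0.577 at TP53BP1 to 1.70 at FANCC. Scaled to 1000000 tags, the pileup was higher at 28 of 39 (71.8%), beside 76.4% of all genes. The repair genes were thus close to other marked genes. The exact Poisson 95% intervals of the scaled pileups overlapped between libraries at 38 genes and were separate at FANCC alone, with 1.27 (0.778 to 1.97) and 2.78 (2.00 to 3.75) tags per 1000000. Overlap of intervals is not a test of the difference, and the highest ratio of scaled pileups was 2.26 at CHEK1, with 11 and 24 tags. Intervals were compared at the repair genes only. Whether 1 separate gene of 39 differs from the share over all genes was not tested.

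**Figure D4:**
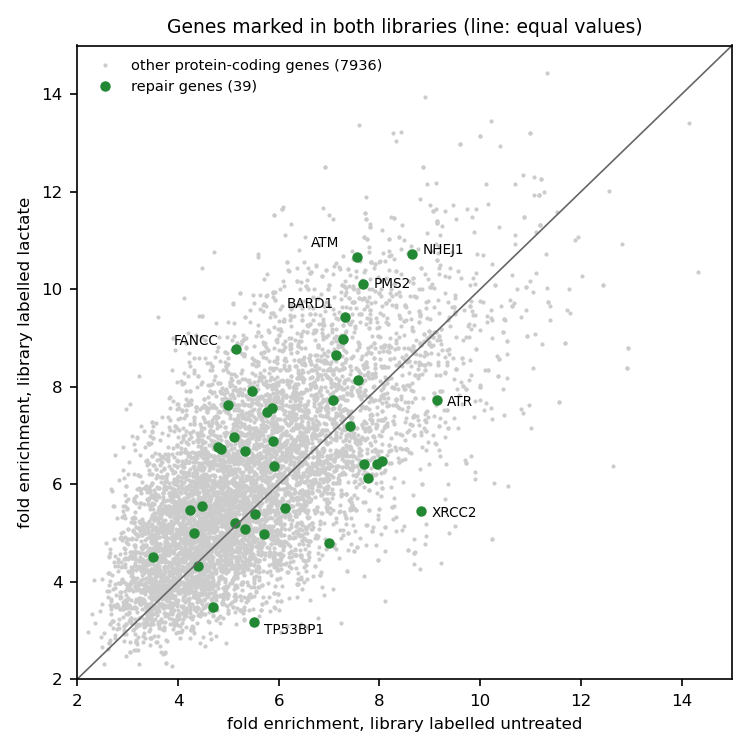
Fold enrichment in the untreated-labelled library (x axis) against the lactate-labelled library (y axis) for protein-coding genes marked in both, with the 39 repair genes in green and the line of equal values. Of the repair genes 24 lie above the line and 15 below, with FANCC far above it and TP53BP1 and XRCC2 below.

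Most gene-end regions overlapped a region of the other library. Of 52 gene-end regions at repair genes in the untreated-labelled library, 49 did so (94.2%, beside 86.1% over all protein-coding genes), and of 61 in the lactate-labelled library 48 (78.7%, beside 71.3%). The strongest regions of both libraries overlapped at 37 of 39 genes, RAD50 and CHEK2 being the others, a count not made over all protein-coding genes. At those 37 their summits lay a median of 30 bp and at most 358 bp apart.

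Genes marked in 1 library alone had weak regions, among repair genes as among all protein-coding genes. The 8 repair genes in the lactate-labelled library alone had a median fold enrichment of 4.53 and a median pileup of 12.5 tags. At the 39 marked in both, that library had 6.69 and 21. Over all protein-coding genes the values were 4.27 and 13 tags at 1943 genes, against 5.88 and 22 at 7975. Among the 8 repair genes, values were as follows. WRN, the helicase mutated in Werner syndrome, was the highest with 11 tags (6.07, chromosome 8 from 31033475 to 31034121), at the facing end of PURG. LIG3, the ligase of single-strand breaks, had 14 tags (5.32) and ERCC2 18 tags (5.28). RBBP8, which encodes the end-resection factor CtIP, had 8 tags (4.56), ERCC3 12 tags (4.51) and LIG4, the end joining ligase, 13 tags (4.38) in the stronger of 2 regions. XRCC5 had 10 tags (4.07) and MUTYH, an adenine glycosylase, 15 tags (4.00). None of the 8 regions overlapped a region of the other library, which follows from how these genes were chosen. For MUTYH the other library had a region 3.87 kb from an end, and for the other 7 it had none within 5 kb. At XRCC5 its nearest region lay just beyond that limit, at 5.07 kb.

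Of the 3 genes in the untreated-labelled library alone, FANCD2, the monoubiquitinated centre of the Fanconi pathway, had 9 tags (4.85) at its start. XRCC3, a strand exchange factor, had 14 tags (4.26) at its far end. Inside XRCC3, 2.99 kb from an end, the lactate-labelled library had a region of 24 tags (6.16). MRE11, the nuclease of the sensing complex, had 8 tags (3.36) at the outer end of its annotation, beside C11orf97. With 8 to 18 tags in their regions, the presence or absence of a mark at these 11 genes rests on few tags, and the lists give no pileup where no region was called.

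Outer gene ends were not always the main start. MRE11 has a listed start 18568 bp inside its annotated end, at 94493844 on chromosome 11. That start carried 38 tags (11.9, from 94493700 to 94494301) in the untreated-labelled library and 36 tags (11.0, from 94493383 to 94494439) in the lactate-labelled library. These fold enrichments are above those of the gene-end regions of all 56 listed genes in the same library. MRE11, counted as marked in 1 library alone, thus had a strong region at its inner start in both. In the lactate-labelled library this region also lay within 1 kb of an end of ANKRD49, and the region of the other library lay within its bounds. The regions thus cannot be assigned to either gene. The summits lay 82 and 89 bp upstream of the start printed above. ERCC1, the nuclease partner of ERCC4 and unmarked at its ends, likewise carried a region at inner starts in both libraries, with 37 tags (6.21) and 45 tags (6.71). RAD52 had a marked start 41428 bp inside, with 19 tags (5.18) and 18 tags (5.62). Its outer listed start had a region within 1 kb in the lactate-labelled library alone, beginning at 991022. The overlapping region of the untreated-labelled library began at 991081, just outside that window, and each held 12 tags.

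Counted at listed starts instead of gene ends, 39 of 51 repair genes were marked in the untreated-labelled library (76.5%, beside 46.1% of 15843 protein-coding genes with a listed start) and 43 in the lactate-labelled library (84.3%, beside 52.0%). Both libraries marked 38 (74.5%, beside 42.7%). The lactate-labelled library alone marked 5 (9.80%, beside 9.27%), namely MUTYH, ERCC2, ERCC3, LIG3 and LIG4. The untreated-labelled library alone marked FANCD2 (1.96%, beside 3.41%). Neither marked 7 (13.7%, beside 44.6%). These were RAD51B, XRCC3, RBBP8, ATRIP, DDB1, FANCM and MGMT.

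Many repair genes shared their region with a neighbour. The strongest region lay within 1 kb of an end of another protein-coding gene in 20 of 42 marked genes of the untreated-labelled library (47.6%) and 22 of 47 of the lactate-labelled library (46.8%), beside 30.9% and 31.0% of all marked genes. The neighbours included NPAT at ATM, MCM4 at PRKDC, LSM3 at XPC, TMEM167A at XRCC4 and ABHD13 at LIG4. A mark at such a pair cannot be assigned to either gene.

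Inside the genes, away from the ends, the 56 genes held 57 regions in the untreated-labelled library and 56 in the lactate-labelled library. These are 1.19 and 1.17 per 100 kb, beside 1.38 and 1.62 over all protein-coding genes. RAD51B, a gene of 863.3 kb, held 19 and 24 of them, 2.21 and 2.79 per 100 kb, while it had no region at an end or at a listed start. Of the 19, 15 overlapped a region of the other library (78.9%, beside 68.6% of inner regions of all protein-coding genes), and of the 24, 14 did (58.3%, beside 58.1%). The strongest in the lactate-labelled library had 40 tags (9.72) and lay 701.4 kb into the gene, on chromosome 14 from 68520970 to 68521507. FANCC held 6 and 3 inner regions, XRCC4 3 and 3, and MSH3 4 and 3. MGMT, a gene of 303.7 kb that encodes the methyltransferase removing alkyl groups from guanine, held 0 in both libraries.

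**Figure D5:**
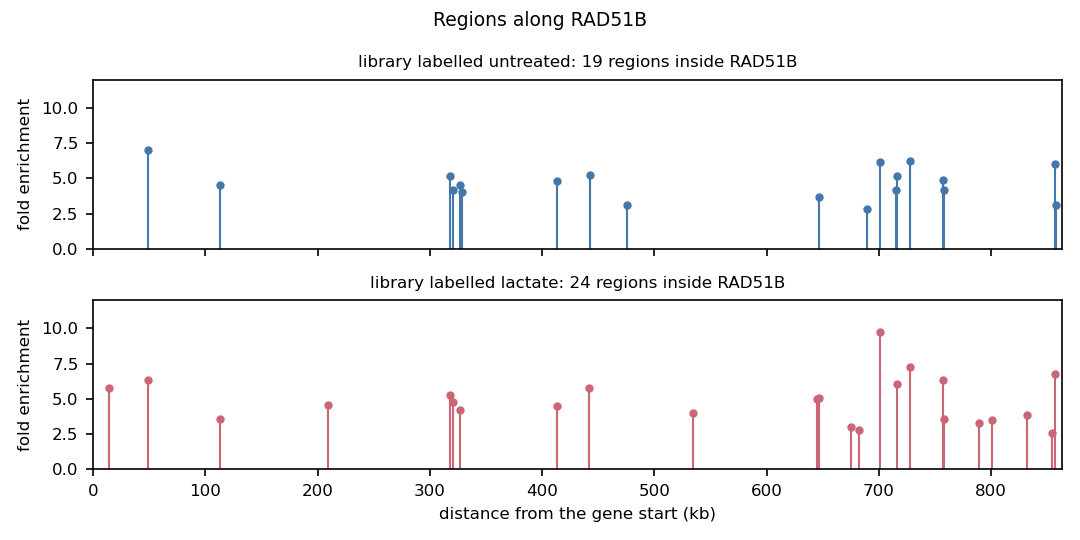
Distance from the start of RAD51B (x axis, kb) and fold enrichment (y axis) of the regions inside the gene, with the untreated-labelled library above and the lactate-labelled library below. Of the 19 and 24 regions, 15 and 14 overlap a region of the other library, and the highest value is 9.72 in the lactate-labelled library.

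A further 87 repair genes outside the list gave similar shares. Of these, 62 were marked in the untreated-labelled library (71.3%, beside 43.5% of all protein-coding genes) and 69 in the lactate-labelled library (79.3%, beside 49.5%). In 1 library alone 17 were marked. The lactate-labelled library alone marked 12 (13.8%, beside 9.70%) and the untreated-labelled library alone 5 (5.75%, beside 3.74%). The highest value in both libraries was that of PARP2, a relative of PARP1 named after its values were seen, with 11.1 and 11.9. In the lactate-labelled library alone the strongest were DMC1, the meiotic recombinase, with 21 tags (7.69), GTF2H5, a subunit of transcription factor IIH, with 21 tags (7.64), and FAAP100 of the Fanconi core with 33 tags (5.40). In the untreated-labelled library alone they were NEIL3, a DNA glycosylase, with 10 tags (5.47), the nuclease gene FAN1 with 8 tags (4.46) and NSMCE2 with 9 tags (4.10).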

How the data were processed

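CUT&Tag peak lists of 2 CAL27 libraries, 1 per group, were used. The submitters' processing notes name hg38, MACS2 2.1.0, BWA and fastp 0.20.0. Per the file headers, MACS 2.1.0.20150420 called peaks per library with no control (q 0.05, tags shifted by -100 bp and extended to 200 bp). The deposited pileup is an unscaled signal that counts tags at a summit. The fold enrichment deposited by the authors is the pileup divided by a background the caller estimated nearby, each raised by 1, as MACS2 defines it. That background was recomputed from both columns.

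Summits of the same start and end were collapsed to 1 region, represented by the summit of highest fold. Gene ends came from RefSeq GRCh38.p14 and gene starts, strands and windows from its promoter table, which held 51 of 56 members. Mitochondrial and unplaced genes were left out. Named genes were all members, by a rule covering those marked in 1 library or neither, the 8 highest per library, the 3 lowest, pathway extremes and shared regions, plus up to 3 other repair genes per direction. Members and lists were chosen with earlier results of these data known. The marking code was checked on planted regions. Tags are not independent molecules. Tables were handled in pandas 2.3.3 under Python 3.11.15 with numpy 2.4.6, intervals came from SciPy 1.17.1, and plots from matplotlib 3.10.9.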

Additional observations from a re-analysis of the deposited data

How the results depend on the processing

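The counts of repair genes marked in each library stayed within 1.5 times the reported 42 and 47 under all 7 of these changes: windows of 500 bp and 2 kb, listed starts, a fold enrichment of at least 5, equal lists of the 21840 strongest regions, the summit in the window, and 100 bp of overlap. They ranged from 31 (fold of at least 5; 23.3% of all genes) to 45 (2 kb; 49.0%) in the untreated-labelled library and from 34 (equal lists; 28.8%) to 51 (2 kb; 55.1%) in the lactate-labelled library. The counts in 1 library alone moved further. At listed starts 5 genes were left in the lactate-labelled library alone and 1 in the untreated-labelled library alone, with 51 genes counted. The shares over all genes with a listed start were 9.27% and 3.41%. With equal lists the counts were 5 and 6, so that their order turned, while over all genes it did not (7.29% and 5.78%). Keeping fold enrichments of 5 or more again gave 8 and 3, beside 10.6% and 3.59% of all genes. Among the 8 only WRN, LIG3 and ERCC2 had been there with all regions, and none of the 3. In an alternative chosen after seeing the data, 7 and 2 genes had no region of the other library within 5 kb of an end. The shares over all genes were 6.51% and 2.40%. No paired analysis was possible because each group has 1 library.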

Other observations

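Some unmarked repair genes lay in long stretches with no region. The stretch around MGMT on chromosome 10 was 1359 kb in the untreated-labelled library and 1245 kb in the lactate-labelled library, where the median gap between neighbouring regions was 26.4 and 21.6 kb. Gaps of that length or more made up 0.380% of 43428 gaps and 0.377% of 50123. These shares are by number of gaps, and long gaps hold a larger share of the length. LIG4 lay in a gap of 2326 kb in the untreated-labelled library, in which the other library had 6 regions, and WRN in one of 698.5 kb, in which it had 3. RBBP8 lay in a gap of 256.6 kb, with 2. Whether copy number or read mapping differs in these stretches was not tested.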
